A study of Homo sapiens with 9 samples.

Results

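The cyclin-dependent kinases (CDKs) that act on transcription and splicing, apart from CDK12 and CDK13, were followed through a pooled knockout screen in RH4 cells. The set was defined by name, as CDK7, CDK8, CDK9, CDK10, CDK11A, CDK11B and CDK19, and its members were the rows of the count table that carried 1 of these 7 symbols. Of the 7, 6 were found, each with 4 single guide RNAs (sgRNAs), so that 24 of 3152 sgRNAs and 6 of 763 genes are described here. CDK8 was not analysed here. RH4 is an established human fusion-positive rhabdomyosarcoma line that carries the PAX3::FOXO1 fusion, and the lentiviral Brunello kinome library of sgRNAs against kinases and kinase-related genes was introduced into it. Cells were infected at a coverage of 1000 cells per sgRNA, selected from 48 h onward with 0.25 µg/ml puromycin over 72 h, and sampled then as baseline. The remainder recovered for 72 h before treatment. These times follow the study's methods, while its main text gives 7 days of puromycin selection before the baseline sample. The 3 groups, of 3 libraries each, were cells with 10 days of 1.5 nM pralatrexate, an antifolate that blocks dihydrofolate reductase, cells with 10 days of vehicle, and baseline, and all of them carried the library in the same line. The comparisons asked which knockouts cells lost over time, and which they lost more in the presence of the drug.

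Reads of an sgRNA stand in for the cells bearing it. Death and slower division of those cells cannot be told apart, and neither cutting nor loss of the protein was measured. The day 10 libraries and the baseline libraries are samples of 1 cell line, and cells lost before baseline do not appear in any comparison. The labels number the libraries as repeats, while the study calls them both separate cultures and technical replicates, so the spread that enters each p-value is that between these libraries and may be technical.

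CDKs of transcription act in sequence along the RNA polymerase II cycle. CDK7, with cyclin H and MAT1, is the kinase of the general factor TFIIH, phosphorylates the polymerase tail at promoters and also activates other CDKs. CDK9, with cyclin T, forms the elongation factor P-TEFb and frees polymerase from its pause near the promoter. CDK19 and its paralogue CDK8 pair with cyclin C in the kinase module of Mediator, the complex that links activators to polymerase, while CDK11A and CDK11B pair with L-type cyclins and act in splicing. CDK10, with cyclin M, is a less studied member of the family.

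In GRCh38, CDK7 spans chromosome 5, 69234795 to 69277430, CDK9 chromosome 9, 127785679 to 127790792, CDK10 chromosome 16, 89680737 to 89696354, and CDK19 chromosome 6, 110609978 to 110815958. CDK11A lies on chromosome 1 at 1702379 to 1724357 and CDK11B on the same chromosome and strand at 1635225 to 1659012. These are gene spans of the GENCODE annotation. The count table names sgRNAs by number and gene only, so cut sites were not placed, and exon positions of the cuts are unknown. Numbers such as A_201 below are the numbers of that table.

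CDKs share a short helix that touches the cyclin, and part of its coding sequence is shown because it sets the 6 genes side by side. Each line gives the 21 coding bases of a signature motif in that helix, read from GRCh38 through the GENCODE canonical transcript, 5′ to 3′.
CDK7: aatagaaccgccttaagagag
CDK9: cccattacagccttgcgggag
CDK10: cccatcagcagcttgcgggag
CDK11A: ccgatcacgtccctgagggag
CDK11B: ccgatcacgtcgctgagggag
CDK19: tccatgtcggcttgtagagag
CDK11A and CDK11B share 20 of these 21 bases, CDK9 and CDK10 share 16, and CDK10 and CDK19 share 9, the lowest number of any pair.

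CDK11A and CDK11B are near-identical copies of a gene. Their coding sequences, of 2340 and 2346 bases, were identical at 2314 of 2346 aligned positions, with 26 mismatches and 6 gapped positions, and the longest identical stretch ran over 607 bases. Among stretches of 60 aligned coding bases without a gap, the 1 with the most differences is shown, with the differing letters in capitals.
CDK11A: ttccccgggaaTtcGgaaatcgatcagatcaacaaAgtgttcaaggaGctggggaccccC
CDK11B: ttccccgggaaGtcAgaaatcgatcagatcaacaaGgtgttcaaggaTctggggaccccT
This stretch differs at 5 positions. Of 407 sites in the CDK11A coding sequence where 20 bases stand before an NGG motif (both strands), 321, or 78.9%, also occur with an NGG motif within the CDK11B gene, and 321 of 403 CDK11B sites (79.7%) occur within CDK11A. No coding site of CDK7, CDK9, CDK10 or CDK19 (113, 197, 203 and 217 sites) recurs in another of the 6 genes. Whether the screen's CDK11A and CDK11B sgRNAs belong to the shared sites could not be read from the table, so whether a value under either name comes from cuts in 1 gene or in both was not tested.

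Libraries held 2468136 to 4602712 reads. With vehicle against baseline the median log2 fold change of targeting sgRNAs was 0.01, but that of the 99 non-targeting sgRNAs analysed was 0.31, and they stood at 0.34 with pralatrexate against baseline, while with pralatrexate against vehicle they stood at −0.0041. Values relative to these controls are therefore given beside the changes from baseline. Single sgRNAs were tested with edgeR, and genes were called by ranking those tests over all sgRNAs and asking whether the ranks of a gene's sgRNAs were lower, or higher, than uniform ranks would be (robust rank aggregation, false discovery rate, FDR, under 0.05 over 763 genes). Gene values are means over the 4 sgRNAs.

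Among the 6 transcriptional CDKs, 1 gene, CDK9, was depleted at day 10 with vehicle and none was enriched, where 6.68% of all genes were depleted and 0.393% enriched. With pralatrexate against baseline 1 of 6, again CDK9, was depleted and none enriched, against 7.21% and 0.262% of all genes. Against baseline the median of the 6 was −0.23 with pralatrexate and −0.12 with vehicle, beside 0.01 and 0.02 over all genes. The members thus parted into CDK7 and CDK9, which stood at −1.61 and −2.89 with vehicle, and CDK10, CDK11A, CDK11B and CDK19, whose gene values lay between −0.31 and 0.24.

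**Figure D1:**
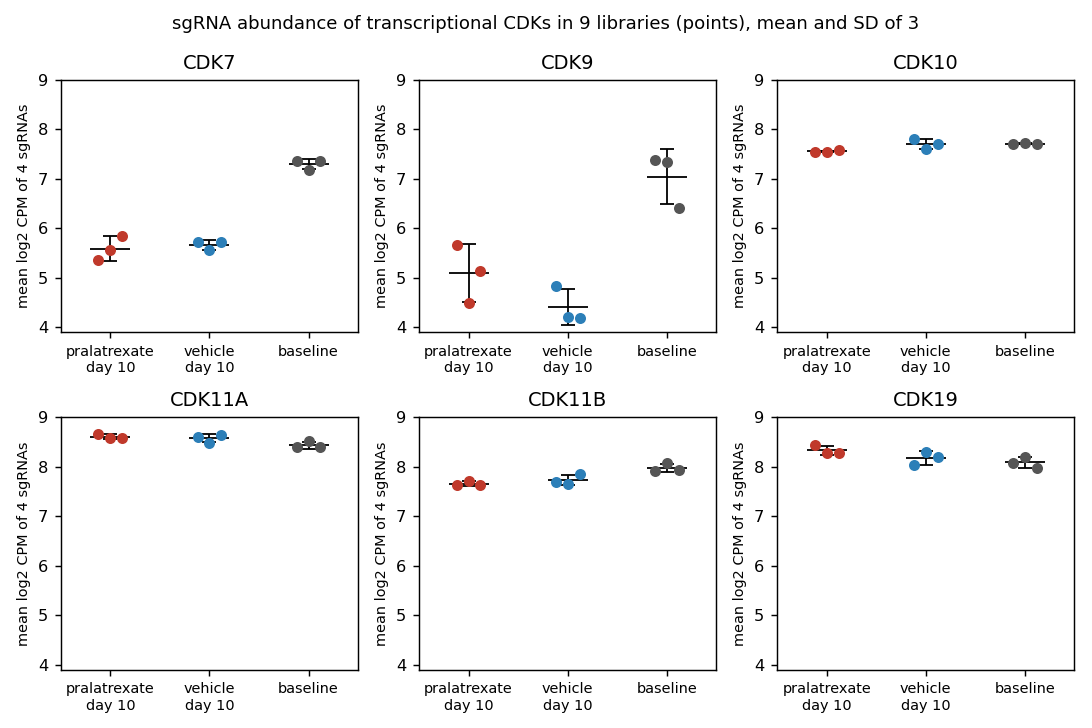
Mean log2 CPM (reads of an sgRNA per 1000000 reads of a library, log2 scale) of the 4 sgRNAs of each gene in the 9 libraries (points), with the mean and SD of 3 libraries (bars). CDK7 (5.59 with pralatrexate, 5.67 with vehicle, 7.30 at baseline) and CDK9 (5.10 with pralatrexate, 4.41 with vehicle, 7.04 at baseline) are far lower at day 10, while the group means of the other genes lie between 7.55 and 8.61 in all groups.

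CDK9 had the second lowest gene value of the library with vehicle, a rank that rests on its rarest sgRNA, A_204. Its level, the mean over the 4 sgRNAs of log2 CPM (reads per 1000000 reads of a library), was 4.84, 4.22 and 4.19 log2 CPM in the vehicle libraries and 7.38, 7.35 and 6.41 log2 CPM in the baseline libraries. Every vehicle library lay below every baseline library. The log2 fold change of CDK9 was −2.89 ± 1.36 (SD, 4 sgRNAs), and the gene passed (FDR 0.00735). As a mean over sgRNAs that includes A_204, this is 13.5% of baseline, and −3.20 relative to non-targeting sgRNAs. The decrease was smaller on reads summed over the sgRNAs (−2.16) and in limma on gene means (−2.63). With each library left out in turn CDK9 passed every time (6 of 6), at −4.01 to −2.73, the lowest of them without vehicle 1.

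All 4 CDK9 sgRNAs fell, by unequal amounts. The sgRNA A_201 had 82, 126 and 156 reads with vehicle and 1117, 929 and 786 reads at baseline, a log2 fold change of −3.02 ± 0.26 (SE; edgeR FDR 3.58e-10). The sgRNA A_202 had 281, 402 and 306 reads with vehicle and 1361, 1672 and 1081 reads at baseline (−2.08 ± 0.21, FDR 5.78e-09). The sgRNA A_203 had 314, 429 and 372 reads with vehicle and 1175, 1395 and 974 reads at baseline (−1.70 ± 0.20, FDR 9.86e-08). These 3 sgRNAs had no overlap between the groups. The fourth, A_204, was rare from the start, with 8, 0 and 0 reads with vehicle and 112, 116 and 7 reads at baseline (−4.74 ± 1.29, FDR 0.00845). The baseline library with 7 reads is also the one in which the CDK9 level was lowest. Without A_204 (sgRNAs with fewer than 50 reads in any baseline library removed, a choice made after the data were seen) CDK9 stood at −2.27 (FDR 0.0031) and had the 7th lowest gene value of 763.

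With pralatrexate the level of CDK9 was 5.67, 4.498 and 5.14 log2 CPM. These libraries also lay below all baseline libraries. CDK9 passed against baseline as well (FDR 0.015), at −1.86 ± 0.54, which is 27.5% of it, or −2.20 relative to non-targeting sgRNAs. The sgRNAs A_201, A_202 and A_203 fell (−2.67, −1.56 and −1.66, FDR 2.97e-09, 7.46e-07 and 1.72e-07), while A_204 stood at −1.56 ± 0.94 and did not pass (FDR 0.271). The gene's call ended without its strongest sgRNA (−1.59, FDR 0.0733), although the value stayed near that of the full set.

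CDK9 had the highest gene value of all 763 genes in the comparison of pralatrexate with vehicle, at 1.03 ± 1.45 (SD, 4 sgRNAs), and it did not pass (FDR 0.73). All 4 sgRNAs were higher with pralatrexate, but the libraries overlapped, since pralatrexate 2 lay below vehicle 1. Within the pairs of same-numbered libraries the CDK9 level was higher with pralatrexate in 3 of 3, by 0.83, 0.28 and 0.95, and with the number as a block the gene did not pass either (1.05, FDR 0.642). Most of the value came from A_204, with 43, 0 and 28 reads with pralatrexate and 8, 0 and 0 reads with vehicle, at 3.18 ± 1.42. A_201, A_202 and A_203 stood at 0.35, 0.52 and 0.04, and none of the 4 passed (FDR 0.82 to 0.987). Without A_204 the gene value was 0.31 (FDR 0.924) and no longer the highest but the 3rd highest of 763, in reads summed over the sgRNAs it was 0.33 (FDR 0.834), and without vehicle 1 it was 2.15 (FDR 0.386). The interval of the difference from limma on gene means was 0.14 to 1.24 (95%; FDR 0.59).

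CDK7 sgRNAs parted into strong and weak ones. The level of CDK7 was 5.73, 5.55 and 5.73 log2 CPM with vehicle and 7.36, 7.19 and 7.35 log2 CPM at baseline, and the groups did not overlap. The gene stood at −1.61 ± 1.52 with vehicle (SD, 4 sgRNAs), or −1.92 relative to non-targeting sgRNAs, and did not pass the rank aggregation (FDR 0.198). limma on gene means, which takes the libraries and not the sgRNAs as the unit, put it at −1.63 with an interval of −1.84 to −1.41 (95%; FDR 6.74e-10), and edgeR on summed reads at −1.60 (FDR 6.38e-12). So the decrease of the CDK7 pool was larger than the spread between libraries, while the rank test over its 4 sgRNAs was not passed.

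The sgRNA A_198 of CDK7 fell most, with 137, 86 and 193 reads with vehicle and 1288, 1537 and 1363 reads at baseline (−3.35 ± 0.30, SE; edgeR FDR 7.17e-10). The sgRNA A_197 fell as well, with 95, 145 and 77 reads with vehicle and 637, 483 and 494 reads at baseline (−2.39 ± 0.31, FDR 6.3e-07). The sgRNA A_199 stood at −0.55 ± 0.20 (FDR 0.0597) and A_200 at −0.14 ± 0.27 (FDR 0.777). A_200 had 196, 327 and 310 reads with vehicle and 342, 306 and 236 reads at baseline. A_198 was thus left at 9.85% of its baseline CPM and A_200 at 90.6%.

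With pralatrexate the CDK7 level was 5.35, 5.57 and 5.85 log2 CPM, below every baseline library. The gene stood at −1.67 ± 1.61 against baseline (FDR 0.125), or −2.005 relative to non-targeting sgRNAs, with A_197, A_198 and A_199 lower (−2.79, −3.25 and −0.76; edgeR FDR 7.49e-08, 1.16e-09 and 0.00799) and A_200 at 0.13 (FDR 0.788). When sgRNAs with a baseline mean under 300 reads were removed, A_200 left the gene and CDK7 passed with pralatrexate (−2.27, FDR 0.0405) but not with vehicle (−2.10, FDR 0.0822). Pralatrexate against vehicle gave −0.06 ± 0.30 (FDR 0.983), with an interval of −0.30 to 0.13 (limma, 95%), and the libraries overlapped.

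**Figure D2:**
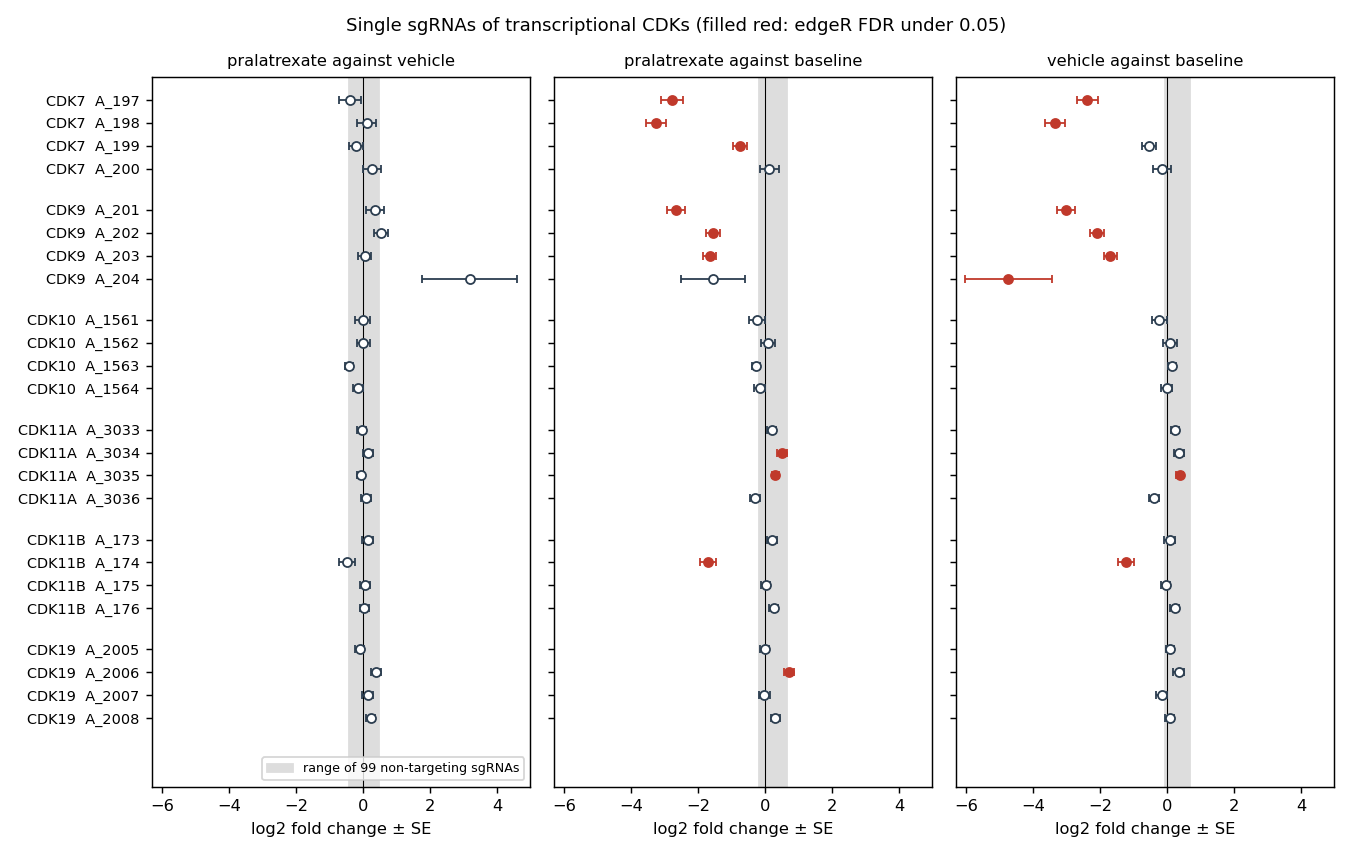
Log2 fold change of each of the 24 sgRNAs with its standard error (bars) in the 3 comparisons, with the span of the 99 non-targeting sgRNAs as a grey band. CDK9 sgRNAs lie from −4.74 to −1.70 with vehicle against baseline, CDK7 sgRNAs from −3.35 to −0.14, and A_174 is the only CDK11B sgRNA far from 0 (−1.22).

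CDK7 and CDK9 also had some of the lowest mean levels of the pool at baseline. Their mean levels of 7.30 ± 0.10 and 7.04 ± 0.55 log2 CPM (SD of 3 libraries) ranked 13th and 8th from the lowest of 763 genes. For CDK9 the low mean rested on A_204, with a baseline mean of 18.7 CPM beside 239, 344 and 297 CPM for A_201, A_202 and A_203. The CDK7 sgRNAs A_197, A_198, A_199 and A_200 had 137, 355, 171 and 74.3 CPM. CDK10 was at 7.71, CDK11B at 7.97, CDK19 at 8.08 and CDK11A at 8.43. The original pool was not analysed here, so the abundance of these sgRNAs at infection is not known and the cause of the low start was not tested.

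CDK11B rested on a single sgRNA. Against baseline the gene stood at −0.31 ± 0.94 with pralatrexate (SD, 4 sgRNAs; FDR 1) and at −0.24 ± 0.66 with vehicle (FDR 1), or at −0.64 and −0.55 relative to non-targeting sgRNAs, and at −0.07 ± 0.29 with pralatrexate against vehicle (FDR 0.983, limma interval −0.22 to 0.09). Its level was 7.63, 7.72 and 7.63 log2 CPM with pralatrexate, 7.68, 7.65 and 7.84 with vehicle and 7.92, 8.07 and 7.93 at baseline, so that both day 10 groups lay below baseline without overlap.

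The sgRNA A_174 of CDK11B had 181, 171 and 238 reads with pralatrexate, 200, 369 and 442 reads with vehicle and 731, 960 and 575 reads at baseline. Against baseline it fell with pralatrexate (−1.71 ± 0.24, SE; edgeR FDR 1.91e-06) and with vehicle (−1.22 ± 0.23, FDR 0.000209), to 30.6% of its baseline CPM with pralatrexate and 42.7% with vehicle. Its value with pralatrexate against vehicle was −0.49 ± 0.24 (FDR 0.881). The other 3 CDK11B sgRNAs stood between 0.01 and 0.25 with pralatrexate and between −0.04 and 0.23 with vehicle, and without A_174 the gene stood at 0.16 with pralatrexate and 0.09 with vehicle. As a mean over its sgRNAs, limma called CDK11B lower than baseline with pralatrexate (FDR 0.00344) and with vehicle (FDR 0.0189). Summing the reads of the 4 sgRNAs before edgeR gave −0.05 with pralatrexate (FDR 0.599) and −0.08 with vehicle (FDR 0.436), and neither passed.

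CDK11A had 3 of 4 sgRNAs at positive values against baseline. The level of CDK11A was 8.66, 8.58 and 8.58 log2 CPM with pralatrexate, 8.60, 8.48 and 8.64 with vehicle and 8.39, 8.51 and 8.39 at baseline. Against baseline the gene stood at 0.17 ± 0.35 with pralatrexate (FDR 0.552) and 0.15 ± 0.36 with vehicle (FDR 0.634), or at −0.16 and −0.17 relative to non-targeting sgRNAs. Its sign against baseline thus depended on the scale. On reads summed over the 4 sgRNAs it passed as higher with pralatrexate (0.18, FDR 0.0227) and with vehicle (0.19, FDR 0.0169). A_3034 and A_3035 rose by 0.51 and 0.30 with pralatrexate (edgeR FDR 0.0158 and 0.0364), and A_3035 rose by 0.37 ± 0.10 with vehicle (FDR 0.00857), all 3 values within the range of the non-targeting sgRNAs (−0.17 to 0.66 with pralatrexate, −0.05 to 0.67 with vehicle). A_3036 was the lowest, at −0.31 ± 0.14 with pralatrexate (FDR 0.135) and −0.39 ± 0.14 with vehicle (FDR 0.055). Pralatrexate against vehicle gave 0.03 ± 0.11 (FDR 0.976, limma interval −0.11 to 0.18).

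**Figure D3:**
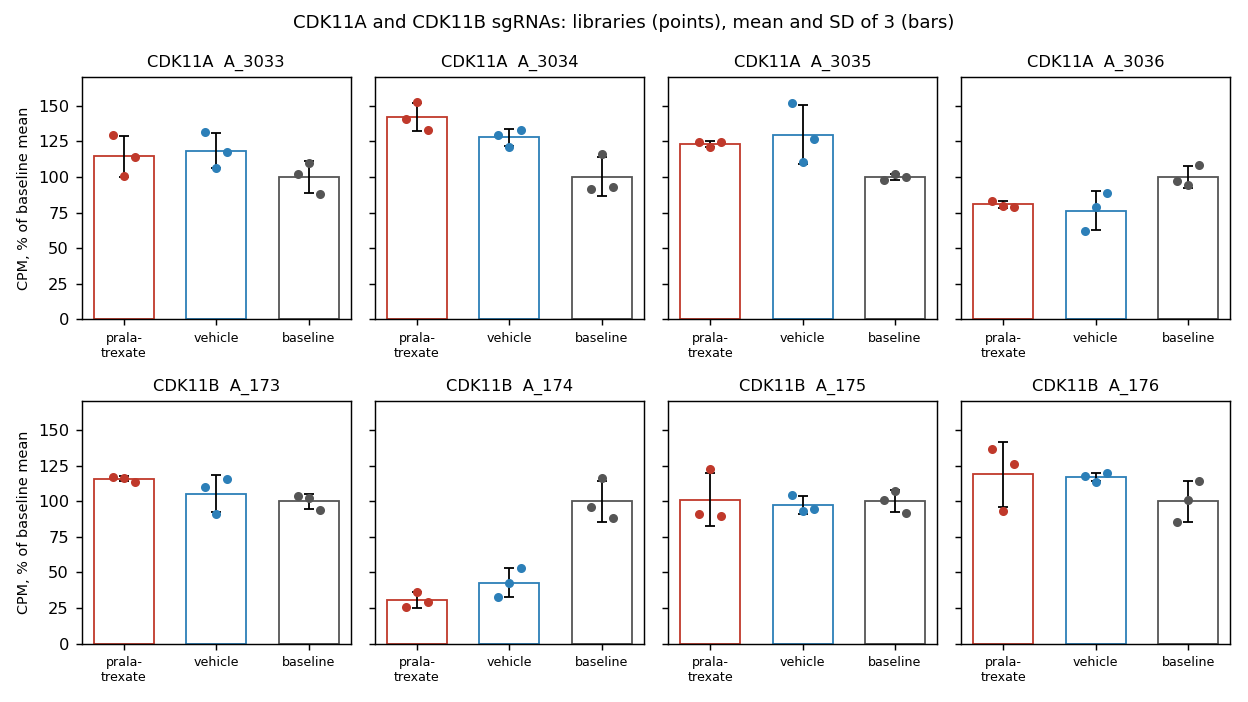
CPM of the CDK11A and CDK11B sgRNAs in the 9 libraries (points), as a percentage of each sgRNA's baseline mean, with the mean and SD of 3 libraries (bars). A_174 of CDK11B is at 30.6% with pralatrexate and 42.7% with vehicle, while the other 7 sgRNAs keep group means from 76.3% to 142%.

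CDK19 of the Mediator kinase module did not pass as depleted in any comparison. Its level was 8.43, 8.27 and 8.28 log2 CPM with pralatrexate, 8.03, 8.30 and 8.19 with vehicle and 8.08, 8.20 and 7.97 at baseline. Against baseline the gene stood at 0.24 ± 0.35 with pralatrexate (FDR 0.564) and 0.09 ± 0.20 with vehicle (FDR 1), or at −0.09 and −0.23 relative to non-targeting sgRNAs, which turned its sign. With pralatrexate against vehicle it stood at 0.15 ± 0.20 (FDR 0.874, limma interval −0.02 to 0.33). With pralatrexate against baseline CDK19 passed on summed reads (FDR 0.0158) and on gene means in limma (FDR 0.0367). The pralatrexate libraries lay above all baseline libraries but overlapped with vehicle. The sgRNA A_2006 was the highest, with 1622, 834 and 1432 reads with pralatrexate, 860, 1450 and 1212 reads with vehicle and 928, 1183 and 607 reads at baseline. It rose by 0.71 ± 0.15 with pralatrexate against baseline (SE; edgeR FDR 0.000905), above the range of the non-targeting sgRNAs, and stood at 0.34 ± 0.15 with vehicle (FDR 0.122) and at 0.37 ± 0.15 with pralatrexate against vehicle (FDR 0.82). The other 3 CDK19 sgRNAs did not pass in any comparison.

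CDK10 had the smallest change from baseline of the 6 members with vehicle. Relative to non-targeting sgRNAs, CDK11A (−0.17) and CDK19 (−0.23) lay closer to the controls than CDK10 did. The level of CDK10 was 7.53, 7.55 and 7.57 log2 CPM with pralatrexate, 7.80, 7.61 and 7.70 with vehicle and 7.70, 7.73 and 7.71 at baseline. The gene stood at −0.0039 ± 0.17 with vehicle (FDR 1, limma interval −0.15 to 0.14), or −0.32 relative to non-targeting sgRNAs, and at −0.15 ± 0.17 with pralatrexate against baseline (FDR 0.77), or −0.49 relative to non-targeting sgRNAs. On summed reads it passed there (−0.20, FDR 0.0464). With pralatrexate against vehicle it stood at −0.15 ± 0.20 (FDR 0.983, limma interval −0.30 to −0.01, limma FDR 0.812). Its pralatrexate libraries all lay below its vehicle libraries, which held for 1 of 6 members and for 3.41% of all genes, while the opposite order held for 0 of 6 and for 3.67%. The sgRNA A_1563 was the lowest of CDK10 there, with 1244, 882 and 1254 reads with pralatrexate and 1388, 1944 and 2098 reads with vehicle (−0.43 ± 0.12, SE; edgeR FDR 0.34). The other 3 CDK10 sgRNAs stood between −0.15 and 0.01.

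Across the 24 sgRNAs, 7 were lower and 1 higher with vehicle against baseline (edgeR FDR under 0.05), or 4 of CDK9, 2 of CDK7, 1 of CDK11B and 1 of CDK11A, where 12.8% of all 3145 sgRNAs tested were lower and 6.26% higher. With pralatrexate against baseline 7 were lower and 3 higher, beside 13.1% and 5.98% of all sgRNAs. These shares include the 99 non-targeting sgRNAs, of which 38 were called higher with vehicle against baseline and 35 with pralatrexate against baseline. None of the 99 was called lower in either comparison. A call as higher against baseline was thus common among the controls. With pralatrexate against baseline 11 of 24 member sgRNAs lay below the range of the non-targeting sgRNAs, where 27.7% of all targeting sgRNAs did, and 1 above it, where 0.295% did. At least 1 sgRNA lay below for 5 of 6 members, where this held for 53.5% of all genes. With vehicle against baseline 12 of 24 lay below (40.7% of all targeting sgRNAs) and 0 above (0.394%), with at least 1 below for 6 of 6 members, where this held for 74.2% of all genes. The non-targeting range began near the middle of all sgRNAs with vehicle, so a place below it was common in the library. Gene levels lay below all baseline libraries for 3 of 6 members with vehicle (24.4% of all genes) and for 4 of 6 with pralatrexate (25.6%), and above them for 0 and 2 of 6 (19.5% and 20.3%).

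With pralatrexate against vehicle no member passed in either direction, where 0.524% of all genes were depleted and 0% enriched. At an unadjusted p of 0.05 there were 30 depleted and 41 enriched genes of 763. Of the members, CDK10 had an unadjusted p of 0.0264 for depletion, and CDK9 and CDK19 had 0.00481 and 0.0378 for enrichment. None of the 24 sgRNAs passed, where 0.0318% of all sgRNAs were lower and 0% higher, and 20 of 24 lay within the non-targeting range. Below it lay 2 of 24, A_174 of CDK11B and A_1563 of CDK10, where 1.48% of all targeting sgRNAs did (2 of 6 members with an sgRNA below, against 5.11% of all genes), and above it lay 2 of 24, A_202 and A_204 of CDK9, where 0.952% did. The 6 members ran from −0.15 for CDK10 to 1.03 for CDK9, with a median of −0.02 beside 0.01 over all genes.

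**Figure D4:**
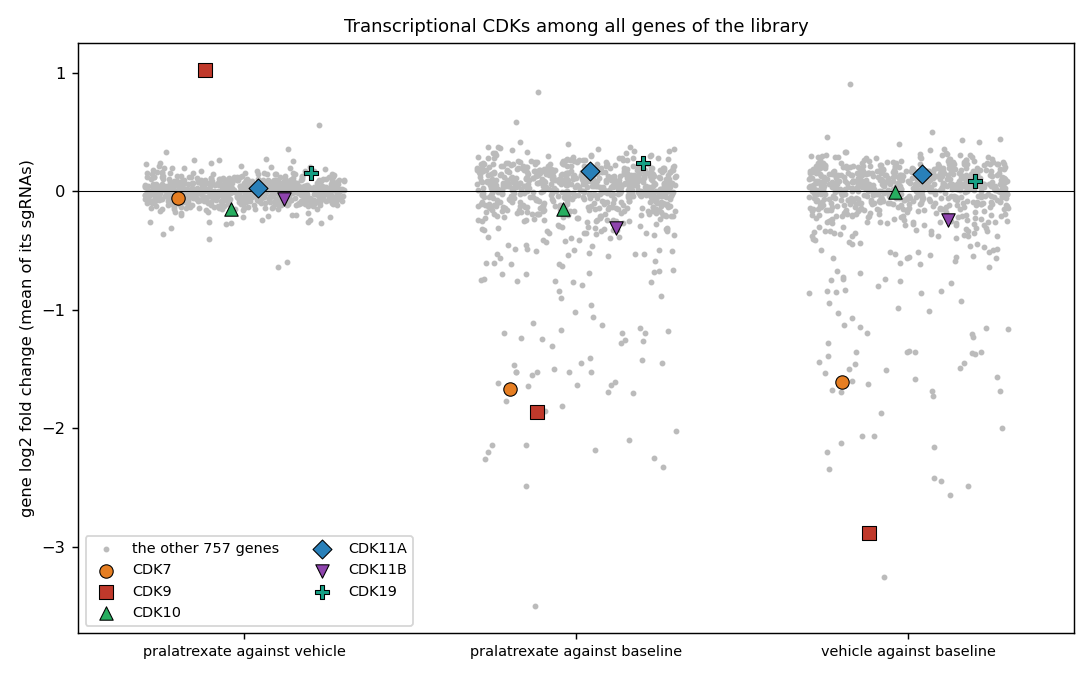
Gene log2 fold change (mean of the gene's sgRNAs) in the 3 comparisons for the 6 transcriptional CDKs (symbols) among the other 757 genes of the library (grey). CDK9 is the lowest but 1 with vehicle against baseline (−2.89, or −2.27 and 7th lowest without A_204) and the highest with pralatrexate against vehicle (1.03, or 0.31 and 3rd highest without A_204), and CDK10, CDK11A, CDK11B and CDK19 lie within 0.31 of 0 throughout.

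Partners and neighbours of these kinases give the setting. The other tail kinases, CDK12 and CDK13, stood at −0.54 and 0.91 with vehicle against baseline, and of the 2 CDK13 was enriched (FDR 2.6e-06). CDK12 was depleted with pralatrexate against vehicle (−0.64, FDR 3.69e-05). Of 12 measured genes of transcription complexes (of 25 listed), 4 were depleted with vehicle, where 6.68% of all genes were. The same 4 were depleted with pralatrexate against baseline, where 7.21% of all genes were. Among the 4 were TRRAP, a scaffold for acetyltransferases (−2.56 with vehicle), and TAF1, the largest TFIID subunit (−1.68). GTF2H1, a core subunit of the TFIIH complex that also holds CDK7, was another of them (−1.35). The median of the 12 was −0.45 with vehicle, beside 0.02 over all genes. Of the 12, only TAF9 of TFIID was depleted with pralatrexate against vehicle (−0.36, FDR 0.00178), where 0.524% of all genes were. In the list of splicing kinases 1 of 8 was depleted with vehicle, PRPF4B of the spliceosome (−1.36), where 6.68% of all genes were. The median of this list was 0.02, as over all genes. The CLK and SRPK genes, which phosphorylate splicing factors, did not pass.

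Among the cell cycle CDKs, 3 of 5 were depleted in both comparisons with baseline. The shares over all genes were 6.68% with vehicle and 7.21% with pralatrexate. CDK1, which drives mitotic entry, was at −3.25 with vehicle, CDK6 of G1 at −1.45 and CDK2 of S phase at −0.74. CDK7 also activates other CDKs, and whether this bears on the values of this list, called or not, was not tested. CDK4 and CDK3 of the same list passed in neither comparison with baseline. They stood at −0.34 and 0.10 with vehicle and at −0.35 and −0.0038 with pralatrexate. None of 12 other CDKs and CDK-like kinases passed in any comparison. Their values with vehicle ran from −0.15 to 0.23, with a median of 0.14 beside 0.02 over all genes. CDK10, CDK11A, CDK11B and CDK19 thus lay with vehicle in or near the range of that last list, with CDK11B (−0.24) just below it.

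The genes whose profile over the 9 libraries was most like that of CDK9 were TRRAP, CLP1, an RNA kinase, and DTYMK, which makes thymidine diphosphate. Likeness was the root mean square difference of the levels, each centred on the gene's own mean, and it was 0.31, 0.38 and 0.44 log2 units for these genes, beside a median of 1.199 over all genes. All 9 libraries enter this measure, including those of both groups in which CDK9 passed as depleted.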

How the data were processed

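Genomic DNA of 9 libraries was amplified over the sgRNA cassette and sequenced. The authors deposited raw read counts per sgRNA, not normalized. The submitters' processing notes name Bowtie 1.0.0. The sources used here give neither the mismatches allowed nor a counting program and mention no molecular identifiers, so PCR copies count as reads. The authors' MAGeCK gene tables hold scores, p-values and fold changes of their own comparisons and were not used.

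Only sgRNAs averaging at least 30 reads per library entered, 3145 in all, with all 24 member sgRNAs. edgeR 4.0.16 in R 4.3.3 (quasi-likelihood, TMM, group only, all 9 libraries) gave log2 fold changes, and SE is the fold change over the root of F. All sgRNAs were ranked by their p-value in each direction, and the alpha-RRA score of MAGeCK (p under 0.25) was given its exact p under uniform ranks in place of random sets. p-values were adjusted by Benjamini and Hochberg. Levels are log2 CPM with a prior count of 2. limma 3.58.1, DESeq2 1.42.0, Biopython 1.88 and GENCODE 44 were also used. Scripts were tested on simulated data.

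The text names all members, listed genes past the threshold (1 of them is not reported here), and the 3 genes most like each member that passed in any comparison. Members and lists were chosen with earlier results of these data known. Pairs of libraries within a group had a chi-square of 10.7 to 25.8 per degree of freedom, so none was a second sequencing of another. Separate amplifications of 1 DNA sample would not be told apart from separate cultures. Deviations of same-numbered pralatrexate and vehicle libraries correlated at 0.175 to 0.198 over sgRNAs. The main fit, by group only, did not use these pairs, and a fit with the number as a block was the alternative. Against baseline the correlations were −0.03 to 0.07.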

Additional observations from a re-analysis of the deposited data

How the results depend on the processing

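Each value was recomputed with scaling to non-targeting sgRNAs, DESeq2, no read filter, a baseline mean of at least 300 reads, the compared groups alone, the replicate block, edgeR on summed reads, limma on gene means, without the strongest sgRNA of each gene, without each library and, added after the data were seen, with at least 50 reads in every baseline library. Of these values for single members, 257 kept their direction and their side of the threshold, 12 gained a call, 1 lost it and 18 changed sign, all 18 without a call. The lost call was CDK9 with pralatrexate against baseline without its strongest sgRNA (−1.59, FDR 0.0733). The cause of these changes was not tested. The largest shifts in counts came from tests that take the libraries alone as the unit. On summed reads with vehicle against baseline 161 genes were depleted and 109 enriched (51 and 3 by rank aggregation), with 2 members depleted (CDK7, CDK9) and 1 enriched (CDK11A), and with pralatrexate against baseline 175 and 122 (55 and 2), with 3 members depleted (CDK7, CDK9, CDK10) and 2 enriched (CDK11A, CDK19). limma gave 151 and 69 genes with 3 members depleted (CDK7, CDK9, CDK11B) with vehicle, and 152 and 75 genes with 3 members depleted (the same 3) and 1 enriched (CDK19) with pralatrexate. Both gave 1 enriched gene with pralatrexate against vehicle, where rank aggregation gave 0. DESeq2 left 1 enriched gene with vehicle. Without the strongest sgRNA of each gene 1 gene was enriched in each comparison with baseline, and with pralatrexate 34 were depleted, 0 of them members. A baseline mean of at least 300 reads gave 2 depleted members with pralatrexate against baseline (CDK7, CDK9).

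Signs changed as follows. With scaling to non-targeting sgRNAs CDK11A and CDK19 stood at −0.18 and −0.24 with vehicle and at −0.14 and −0.068 with pralatrexate against baseline. On summed reads CDK10 stood at 0.033 with vehicle against baseline, and CDK11A and CDK11B at −0.0091 and 0.023 with pralatrexate against vehicle. Without the strongest sgRNA CDK10 and CDK11B stood at 0.072 and 0.086 with vehicle, CDK11B at 0.16 with pralatrexate against baseline, and CDK7, CDK11A and CDK11B at 0.051, −0.013 and 0.072 with pralatrexate against vehicle. Without 1 library, CDK10 ranged from −0.060 to 0.046 with vehicle against baseline, and with pralatrexate against vehicle CDK7 ranged from −0.23 to 0.068 and CDK11A from −0.020 to 0.064. The depleted genes then numbered 49 to 56, 1 to 5 and 50 to 57 with vehicle against baseline, pralatrexate against vehicle and pralatrexate against baseline, and the enriched genes 1 to 5, 0 and 1 to 5. The 1 gene for pralatrexate against vehicle came without vehicle 2, and 2 genes came without pralatrexate 2. The enriched genes with vehicle numbered 1 without vehicle 3 and 5 without baseline 2, and with pralatrexate against baseline 1 without pralatrexate 1 or 2 and 5 without baseline 3. The replicate block changed no call of a member (CDK9 −2.88 with vehicle against baseline, 1.05 with pralatrexate against vehicle and −1.83 with pralatrexate against baseline) and gave 49, 5 and 55 depleted genes. Read depth limits A_204 of CDK9 most, with at most 8 reads in any vehicle library.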
